A study of Arabidopsis thaliana with 6 samples.

Results

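The genes described are 9 inhibitors of cyclin-dependent kinases (CDKs) in Arabidopsis thaliana: KRP1 to KRP7, SIM and SMR1, which is also called LGO. They were chosen by locus, as AT2G23430 (KRP1), AT3G50630 (KRP2), AT5G48820 (KRP3), AT2G32710 (KRP4), AT3G24810 (KRP5), AT3G19150 (KRP6), AT1G49620 (KRP7), AT5G04470 (SIM) and AT3G10525 (SMR1), and all 9 were found among the 30457 features listed for each library. Poly(A) RNA was sequenced from sgd mutant ovules (3 libraries) and wild-type (WT) ovules (3 libraries), both in the qrt1 background, whose pollen grains stay together in tetrads. Ovules of both genotypes were taken at FG1 to FG3, when the embryo sac begins to form, from plants grown at 22 °C with 16 h of light and 8 h of dark. About 6000 ovules are stated in the design text, without saying whether that number is per library, and the sources used here do not name the locus that sgd alters. Since no label says that the libraries of a genotype stem from different plants, p-values cover just the spread between these libraries, which may be technical.

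CDKs drive the plant cell cycle when they are bound by cyclins, and KRP and SIM-type proteins are the main families of direct inhibitors of these kinases. KRP proteins (Kip-related proteins, also called ICK) bind CDKA;1 and D-type cyclins and hold back entry into DNA replication, in part by keeping the retinoblastoma protein RBR1 unphosphorylated and so able to repress E2F target genes. SIM and SMR1 belong to the SIAMESE family: SIM prevents division and promotes endoreplication in leaf hairs, and SMR1 does the same in the giant cells of sepals and leaves. In the ovule, Arabidopsis plants that lack several KRP genes at once form extra megaspore mother cells, through loss of RBR1 activity and misplaced WUS expression. In the male germline, KRP6 and KRP7 proteins are degraded through the F-box protein FBL17, which allows the generative cell to divide.

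Upstream sequence is shown for KRP3 and KRP6, which stood lowest in sgd ovules relative to WT, and for KRP1 and SMR1, which stood highest. Each is the 250 bases before the annotated start of the gene, printed 5′ to 3′ on the strand of the gene, from RefSeq assembly TAIR10.1. The deposited values carry locus names and no coordinates, so the positions are those of the assembly. Capitals mark matches to the mitosis-specific activator core (TAACGG or CAACGG) or to the abscisic acid response element core (ACGTGTC or ACGTGGC), on either strand.
KRP3 (chr5:19794481-19794730, minus strand): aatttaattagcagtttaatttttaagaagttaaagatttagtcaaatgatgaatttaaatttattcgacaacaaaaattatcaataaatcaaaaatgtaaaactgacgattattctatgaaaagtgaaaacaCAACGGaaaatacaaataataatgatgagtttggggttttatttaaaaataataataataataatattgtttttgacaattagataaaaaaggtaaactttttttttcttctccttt
KRP6 (chr3:6617952-6618201, minus strand): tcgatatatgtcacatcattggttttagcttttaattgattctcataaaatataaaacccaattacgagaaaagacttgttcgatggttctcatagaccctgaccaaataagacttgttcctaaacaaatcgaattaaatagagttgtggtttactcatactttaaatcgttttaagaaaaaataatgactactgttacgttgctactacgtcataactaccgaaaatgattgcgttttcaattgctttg
KRP1 (chr2:9978091-9978340, minus strand): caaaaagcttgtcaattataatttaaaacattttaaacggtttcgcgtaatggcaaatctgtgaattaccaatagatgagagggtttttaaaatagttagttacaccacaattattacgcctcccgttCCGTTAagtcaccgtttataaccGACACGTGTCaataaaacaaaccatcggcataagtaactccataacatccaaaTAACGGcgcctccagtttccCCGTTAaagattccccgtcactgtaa
SMR1 (chr3:3282132-3282381, minus strand): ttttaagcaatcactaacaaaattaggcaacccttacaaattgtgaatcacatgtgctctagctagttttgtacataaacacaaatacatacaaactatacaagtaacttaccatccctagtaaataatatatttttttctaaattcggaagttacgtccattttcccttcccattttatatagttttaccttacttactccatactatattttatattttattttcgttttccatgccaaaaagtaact

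The mitosis-specific activator core, the letters that MYB3R factors are known to bind, was found in 4 of the 9 windows (KRP1, KRP2, KRP3 and KRP7), and in 10.8% of 27443 protein-coding promoters of the same length. KRP1 held 3 matches and KRP3 held 1. The abscisic acid response element core was found in 2 of the 9 windows (KRP1 and KRP2), against 6.39% of all promoters, and in KRP1 the matches on the 2 strands overlap in 1 palindrome. E2F sites, searched as TTTCCCGC, TTTGGCGC, TTTCCCGG and TTTGGCGG, were found in 0 of the 9 windows and in 1.89% of all promoters. The motif CTT, 7 bases, AAG was found in KRP7 alone among the members, and in 9.71% of all promoters. KRP6 and SMR1, which differ in direction between genotypes, held no match to any of the motifs searched, and neither did KRP4, KRP5 and SIM. A match is a run of letters and was not tested as a binding site.

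Library 1 of each genotype stood apart from libraries 2 and 3. Chloroplast and mitochondrial loci held 2.08% of the summed FPKM in sgd library 1 and 2.18% in WT library 1, and at most 0.0733% in the other libraries. The locus AT3G06355 alone had 33265 FPKM in sgd library 1 and 44051 FPKM in WT library 1, against 788 to 2563 FPKM in the others. Summed FPKM of all features was 561173 in sgd library 1 and 528715 in WT library 1, against 750410 to 796250 in the others. Depth was estimated from the step that 1 fragment adds to low values, at 13200000 to 23700000 fragments in sgd libraries and 26100000 to 40000000 in WT libraries. The values without both replicate 1 libraries, which leave 2 libraries a genotype, stand beside the genes whose call or size they change. Values are FPKM, fragments scaled to transcript length and to mapped fragments, and tests are on log2(FPKM + 1) with limma over 18100 features that had a mean of at least 1 FPKM. In this bulk RNA, fewer cells of a type and less RNA per cell cannot be told apart.

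All 9 genes were detected in both genotypes, and KRP4 and SIM had the highest levels in each. In sgd ovules the order of mean levels was KRP4 (27.2 ± 3.08 FPKM, SD, n = 3), SIM (17.7 ± 2.096), KRP7 (9.76 ± 3.13), KRP5 (9.10 ± 1.77), KRP1 (7.69 ± 2.66), KRP6 (5.43 ± 2.83), KRP2 (4.90 ± 2.22), SMR1 (2.74 ± 1.44) and KRP3 (2.58 ± 1.595). In WT ovules it was KRP4 (29.2 ± 6.91 FPKM, SD, n = 3), SIM (22.6 ± 8.03), KRP7 (15.0 ± 3.80), KRP3 (14.9 ± 4.46), KRP6 (14.4 ± 5.50), KRP5 (9.63 ± 1.07), KRP1 (4.45 ± 1.28), KRP2 (4.38 ± 1.27) and SMR1 (0.780 ± 0.385). KRP3 was thus the lowest of the 9 in sgd ovules, while in WT ovules its mean was close to those of KRP7 and KRP6. Neighbours in these orders overlapped in their 3 values, except KRP4 with SIM and SIM with KRP7 in sgd, and KRP5 with KRP1 and KRP2 with SMR1 in WT.

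**Figure D1:**
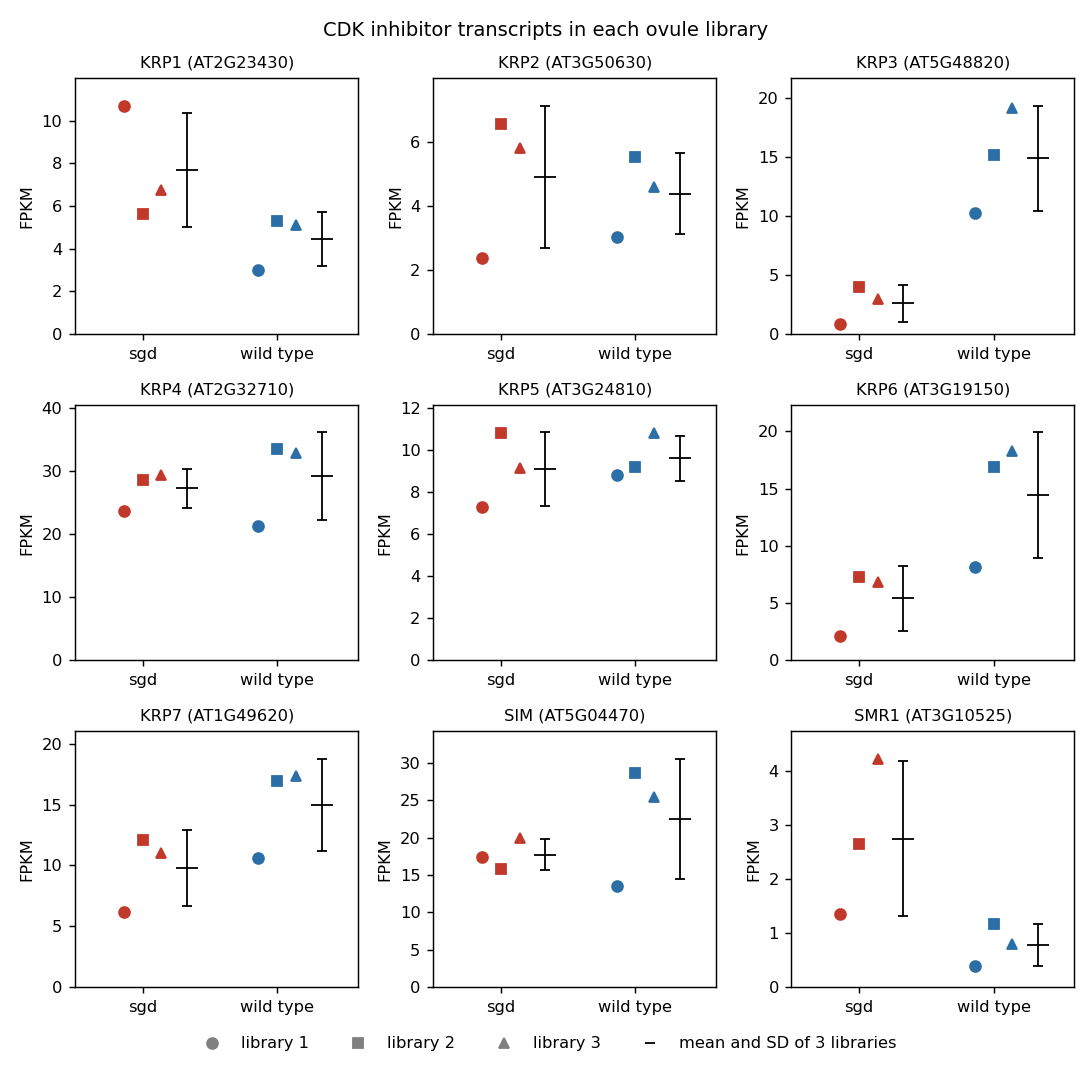
FPKM of each of the 9 CDK inhibitor genes in every library, with sgd points left of WT (wild type) points and a different marker for libraries 1, 2 and 3; the black bars are the mean and SD of 3 libraries. KRP3 and KRP6 have all sgd points below all WT points, and KRP1 and SMR1 have all sgd points above all WT points.

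KRP3 was the member with the largest difference, and it was lower in sgd ovules. It had 0.84, 3.97 and 2.94 FPKM in sgd libraries 1, 2 and 3, against 10.3, 15.2 and 19.2 FPKM in WT libraries 1, 2 and 3. The groups did not overlap, and the highest sgd value lay well under the lowest WT value. The WT mean was 5.75 times the sgd mean, and on the log2(FPKM + 1) scale the change of KRP3 was -2.22 (SE 0.39, limma adjusted p = 0.0033). Within pairs of the same number the sgd value was 0.082, 0.261 and 0.154 of the WT value in libraries 1, 2 and 3. The call held when any 1 library was left out (limma adjusted p between 0.0004 and 0.0155) and was lost when all 30457 features were tested with no filter (limma adjusted p = 0.065). The sgd values rest on about 19, 44 and 30 fragments.

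KRP6, whose protein is a target of FBL17 and of the RHF ligases in gamete formation, stood lower in sgd ovules in every library. It had 2.17, 7.24 and 6.89 FPKM in sgd libraries 1, 2 and 3, against 8.12, 16.8 and 18.3 FPKM in WT libraries 1, 2 and 3. The groups did not overlap, though the highest sgd value came close to the lowest WT value, that of library 1. Its log2 change was -1.31 (SE 0.42) and missed the threshold (limma adjusted p = 0.0553). With the replicate number as a block it passed (limma adjusted p = 0.00601), as it did after median-ratio scaling (log2 change -1.46, limma adjusted p = 0.0118) and without both replicate 1 libraries (log2 change -1.20, limma adjusted p = 0.0009). With 1 library left out the log2 change lay between -1.65 without WT library 1 and -0.86 without sgd library 1, and of these fits the one without sgd library 2 passed (limma adjusted p = 0.0218). Within pairs of the same number the sgd value was 0.267, 0.430 and 0.377 of the WT value.

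KRP7, the other known FBL17 target, had 6.19, 12.1 and 11.0 FPKM in sgd libraries 1, 2 and 3, against 10.6, 16.9 and 17.4 FPKM in WT libraries 1, 2 and 3. The groups overlapped, since WT library 1 lay below sgd libraries 2 and 3, while each sgd library lay below the WT library of its own number. The log2 change was -0.59 (SE 0.31, limma adjusted p = 0.243). With the block it passed (limma adjusted p = 0.0176), and likewise after median-ratio scaling (log2 change -0.73, limma adjusted p = 0.00795) and without both replicate 1 libraries (log2 change -0.54, limma adjusted p = 0.00955). With 1 library left out it did not pass, and the log2 change lay between -0.80 without WT library 1 and -0.32 without sgd library 1. The ratios of sgd to WT by number were 0.585, 0.712 and 0.634.

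SMR1, the giant-cell gene, stood higher in sgd ovules. It had 1.35, 2.65 and 4.22 FPKM in sgd libraries 1, 2 and 3, against 0.39, 1.16 and 0.79 FPKM in WT libraries 1, 2 and 3. The groups did not overlap, and the lowest sgd value was only a little above the highest WT value. The sgd mean was 3.51 times the WT mean. The log2 change was 1.02 (SE 0.36) and missed the threshold (limma adjusted p = 0.0795). It passed with the block (limma adjusted p = 0.0383), after median-ratio scaling (log2 change 0.93, limma adjusted p = 0.0366) and without both replicate 1 libraries (limma adjusted p = 0.0133). With 1 library left out the log2 change was lowest, at 0.74, when sgd library 3 was left out and highest, at 1.32, when sgd library 1 was, the only one of these fits that passed (limma adjusted p = 0.00744). SMR1 has few reads behind it: about 21, 18 and 26 fragments in sgd libraries and 6, 24 and 18 in WT libraries, with a counting error alone of 39.6% in WT library 1. Its WT mean lay under 1 FPKM, so it was tested through its sgd values. Its calls therefore add no support beyond those values themselves.

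KRP1, which in Arabidopsis seedlings is known as an inhibitor induced by abscisic acid, had 10.7, 5.62 and 6.76 FPKM in sgd libraries 1, 2 and 3, against 2.98, 5.29 and 5.09 FPKM in WT libraries 1, 2 and 3. All sgd values lay above all WT values, narrowly so for sgd library 2. By number the sgd value was 3.59, 1.06 and 1.33 times the WT value, so most of the difference lay in the pair of replicate 1 libraries. The log2 change was 0.66 (SE 0.31, limma adjusted p = 0.181), and it did not pass with the block (limma adjusted p = 0.165) or without both replicate 1 libraries (log2 change 0.21, limma adjusted p = 0.281).

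SIM, the leaf-hair gene of the family, had 17.4, 15.8 and 19.97 FPKM in sgd libraries 1, 2 and 3, against 13.5, 28.7 and 25.5 FPKM in WT libraries 1, 2 and 3. The groups overlapped, with WT library 1 the lowest of all 6 and the other WT libraries the highest. Its log2 change was -0.27 (SE 0.31, limma adjusted p = 0.632). Without both replicate 1 libraries it was -0.58, past the threshold (limma adjusted p = 0.0179), while with 1 library left out it lay between -0.59 and -0.07 and did not pass.

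KRP2, KRP4 and KRP5 overlapped between genotypes and did not pass the test. KRP4, the member with the highest level, had 23.7, 28.6 and 29.4 FPKM in sgd libraries 1, 2 and 3, against 21.3, 33.6 and 32.9 FPKM in WT libraries 1, 2 and 3 (log2 change -0.08, SE 0.27, limma adjusted p = 0.897). KRP5, an inhibitor with a known part in endoreplication in roots and hypocotyls, ranged from 7.29 to 10.8 FPKM in sgd and from 8.85 to 10.9 FPKM in WT (log2 change -0.09, SE 0.25, limma adjusted p = 0.872). KRP2, known to restrain lateral root initiation, ranged from 2.38 to 6.54 FPKM in sgd and from 3.02 to 5.53 FPKM in WT (log2 change 0.08, SE 0.35, limma adjusted p = 0.921). The direction of these 3 small differences turned under some settings. KRP4 shares 926 bases with AT2G32720 on the opposite strand, a gene at 19.95 to 35.8 FPKM in sgd and 31.8 to 60.6 FPKM in WT, and without knowledge of strand in the counting their reads cannot be told apart. The opposite-strand partner of SIM (AT5G04475) stood at 0 FPKM in all libraries, and that of SMR1 (AT3G10527) at 0.04 FPKM or less in sgd and 0.97 FPKM or less in WT.

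Counted together, 0 of the 9 members passed the test as higher and 1 as lower (KRP3), while 13.3% of all 18100 features passed as higher and 4.47% as lower. At an unadjusted limma p under 0.05, 1 member was higher and 2 were lower. The share of all features at that threshold was not counted, so these counts cannot be set against it. All 9 had passed the filter on low values, SMR1 through its sgd libraries, so its place in the counts adds no support beyond its values. No label states a pairing of libraries between genotypes, so a block by replicate number is an assumption. With that block 1 member was higher (SMR1) and 3 were lower (KRP3, KRP6 and KRP7), beside 26.5% of features higher and 14.3% lower. After median-ratio scaling the same counts of 1 and 3 came from the same genes, beside 19.2% of features higher and 18.7% lower. Without both replicate 1 libraries SMR1 was higher and KRP3, KRP6, KRP7 and SIM were lower, beside 32.2% of features higher and 17.5% lower. All sgd values lay above all WT values for 2 of 9 members (KRP1 and SMR1) and for 26.8% of features, and below them for 2 of 9 (KRP3 and KRP6) and for 8.8% of features. The median log2 change of the 9 members was -0.09, beside 0.13 for all features. After median-ratio scaling the median of all features was -0.02. Scaling also set the split of all calls, of which 74.8% were higher in sgd as deposited. That share was 61.1% with libraries brought to equal totals, 50.6% with median-ratio scaling and 45.8% with quantile normalization.

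**Figure D2:**
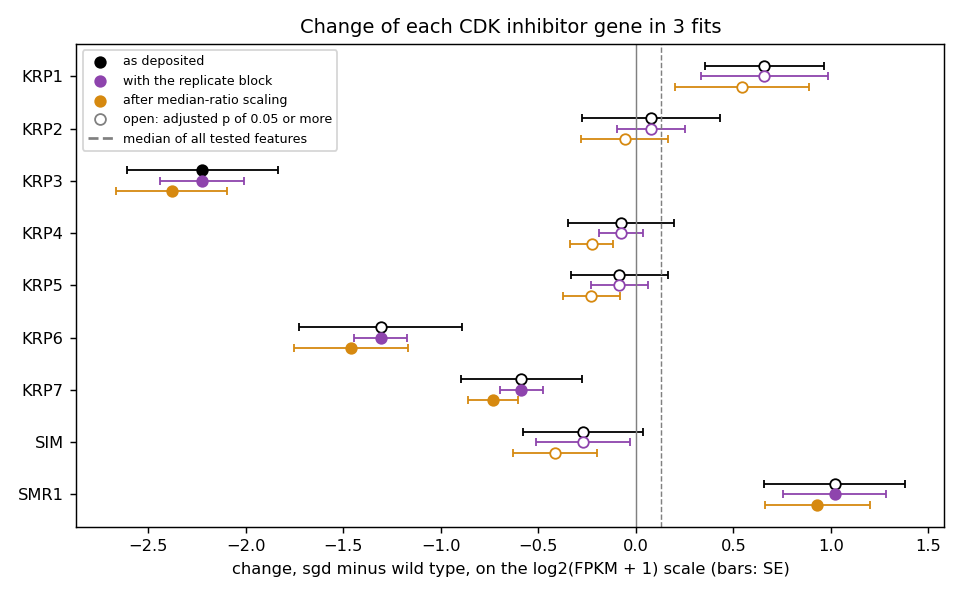
Change of each of the 9 genes, sgd minus WT, on the log2(FPKM + 1) scale, with bars of 1 SE, as deposited, with the replicate block and after median-ratio scaling; filled points have a limma adjusted p under 0.05. KRP3 is filled in all 3 fits (-2.22 as deposited), KRP6, KRP7 and SMR1 in 2 of the 3, and the other members in none.

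The make-up of the inhibitor transcripts restates the values above as shares of their sum, and is no further result. Summed FPKM of the 9 genes was 72.1, 93.3 and 96.2 in sgd libraries 1, 2 and 3, against 78.9, 132 and 135 in WT libraries 1, 2 and 3. KRP3 made up 1.17%, 4.26% and 3.06% of that sum in sgd, against 13.0%, 11.5% and 14.2% in WT. KRP6 made up 5.98% ± 2.59 in sgd and 12.2% ± 1.71 in WT (SD, n = 3 each). KRP4 held 31.4% ± 1.33 of the sum in sgd and 25.6% ± 1.26 in WT, and SMR1 held 3.03% ± 1.27 in sgd and 0.652% ± 0.199 in WT (SD, n = 3 each). The groups did not overlap in these shares, and a larger share of KRP4 goes with a smaller share of the others by construction. KRP1 held 14.8%, 6.02% and 7.03% in sgd, against 3.78%, 3.99% and 3.78% in WT, so that sgd library 1 stood far above the rest. The shares of SIM, KRP2, KRP5 and KRP7 overlapped between genotypes.

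**Figure D3:**
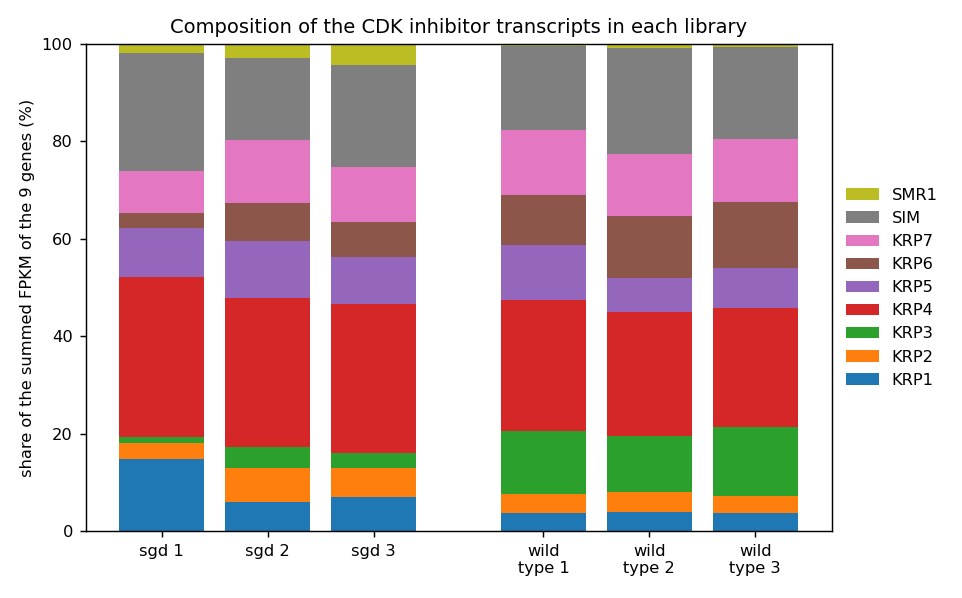
Share of each gene in the summed FPKM of the 9 CDK inhibitors, in percent, as 1 stacked bar a library, with sgd libraries left of WT (wild type) libraries. KRP3 takes 1.17% to 4.26% in sgd libraries and 11.5% to 14.2% in WT libraries.

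The sum was also set against CDKA;1 (AT3G48750), the kinase that KRP proteins bind, a measure chosen after its values were seen. Summed FPKM of the 9 inhibitors was 1.55, 1.503 and 1.45 times that of CDKA;1 in sgd libraries 1, 2 and 3, against 2.66, 2.78 and 2.88 times in WT libraries 1, 2 and 3. The groups did not overlap, and since the measure was chosen with its values in view this is a description only. CDKA;1 itself had 46.5, 62.1 and 66.6 FPKM in sgd, against 29.7, 47.6 and 46.6 FPKM in WT (log2 change 0.50, SE 0.30, limma adjusted p = 0.299). It passed as higher with the block (limma adjusted p = 0.0175), after median-ratio scaling (log2 change 0.35, limma adjusted p = 0.028) and without both replicate 1 libraries (log2 change 0.44, limma adjusted p = 0.00807). With the block and median-ratio scaling together CDKA;1 did not pass. The ratio is of transcripts and says nothing of protein.

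Of 12 other loci listed with the SIAMESE-related (SMR) family, 10 were tested, of which 2 passed as higher, 1 as lower and 7 did not pass, with a median log2 change of 0.17. Over all features 13.3% were higher and 4.47% lower, so these counts of 10 are close to the share of all features. With the block 3 were higher and 1 lower, beside 26.5% and 14.3% of all features. AT2G28870, an SMR1-like protein in RefSeq and the most abundant of them, had 25.4, 31.6 and 31.8 FPKM in sgd, against 47.9, 55.8 and 64.0 FPKM in WT, with a change of -0.89 (log2, SE 0.26, limma adjusted p = 0.0398). AT5G02420, an SMR3-like protein, had 17.6, 2.83 and 2.80 FPKM in sgd, against 0.55, 0.78 and 0.53 FPKM in WT, with a change of 2.0 (log2, SE 0.54, limma adjusted p = 0.0291). Its sgd library 1 stood far above the other sgd libraries, as with KRP1, and all sgd values were above all WT values. Its change was 1.21 without both replicate 1 libraries (limma adjusted p = 0.0058). AT5G59360, an uncharacterized protein in RefSeq, had 1.05, 3.37 and 2.35 FPKM in sgd, against 0.26, 0.33 and 0.47 FPKM in WT (log2 change 1.20, SE 0.35, limma adjusted p = 0.038). AT5G02420 and AT5G59360 had WT means under 1 FPKM and passed the filter on low values through their sgd libraries, so their calls add no support beyond the values themselves. SMR5 was listed at 0 FPKM in every library and SMR7 at 0.43 to 0.85 FPKM in sgd and 0.54 to 0.77 FPKM in WT, and neither was tested. SMR5 and SMR7 are known for their induction by DNA damage and oxidative stress.

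These 3 calls were close to the threshold. That of AT5G02420 was lost without WT library 1 (limma adjusted p = 0.113) and after median-ratio scaling (limma adjusted p = 0.0809). That of AT2G28870 was lost without any 1 of the libraries other than WT library 1 (limma adjusted p between 0.0523 and 0.189), and that of AT5G59360 without any 1 WT library or sgd library 3 (limma adjusted p between 0.0912 and 0.121), while without sgd library 2 it was not tested. Both passed without both replicate 1 libraries, AT2G28870 at -0.89 (limma adjusted p = 0.00141) and AT5G59360 at 1.45 (limma adjusted p = 0.00497). AT2G28330, an uncharacterized protein at 13.6 to 16.0 FPKM in sgd and 10.0 to 11.6 FPKM in WT, passed as higher with the block (limma adjusted p = 0.0271) and without both replicate 1 libraries (limma adjusted p = 0.0215). The other 6 tested loci, SMR4 (AT5G02220), AT1G51355, AT5G40460, AT1G08180, AT1G10690 and AT2G37610, had log2 changes between -0.50 and 0.37 and did not pass (limma adjusted p between 0.349 and 0.948).

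The next lists hold CDKs, cyclins and other genes around the inhibitors, and few of them passed the test as deposited. Of 13 CDKs, their activators, subunits and the kinase WEE1, 1 passed as lower and none as higher, with a median log2 change of -0.65, beside 4.47% of all features lower and 13.3% higher. With the block 8 were lower and 1, CDKA;1, was higher, beside 14.3% of all features lower and 26.5% higher. CDKD;1, a CDK-activating kinase, had 0.57, 1.6 and 1.93 FPKM in sgd, against 3.84, 5.40 and 7.06 FPKM in WT (log2 change -1.46, limma adjusted p = 0.013), a call lost without WT library 3 (limma adjusted p = 0.0671). The change was -1.38 without both replicate 1 libraries (limma adjusted p = 0.00289). CKS2, a CDK-binding subunit, and CDKB2;1 and CDKB1;2, mitotic kinases, had log2 changes of -1.24, -1.12 and -0.97 that missed the threshold as deposited (limma adjusted p = 0.0785, 0.0791 and 0.127) and passed with the block (limma adjusted p = 0.00875, 0.0148 and 0.0262). Their log2 changes without both replicate 1 libraries were -1.16, -0.87 and -0.68 (limma adjusted p = 0.00374, 0.00439 and 0.00397).

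Of 10 D-type cyclins, the partners of CDKA;1 at the start of the cycle, 1 passed as higher and 2 as lower, with a median log2 change of -0.58, beside 13.3% of all features higher and 4.47% lower. With the block 2 were higher, a share below the 26.5% of all features, and 5 were lower, beside 14.3%. CYCD3;1 was listed at 0 FPKM in all sgd libraries, against 13.2, 24.0 and 17.7 FPKM in WT libraries 1, 2 and 3, so no fold is given. CYCD6;1, a cyclin of formative divisions in the root, had 0.14, 0.59 and 0.79 FPKM in sgd, against 2.87, 3.83 and 5.26 FPKM in WT (log2 change -1.72, limma adjusted p = 0.00461). CYCD7;1, a cyclin of the stomatal lineage, had 4.89, 3.22 and 3.10 FPKM in sgd, against 0.65, 0.16 and 0.31 FPKM in WT (log2 change 1.78, limma adjusted p = 0.00301). CYCD3;1 and CYCD6;1 passed the filter on low values through their WT libraries and CYCD7;1 through its sgd libraries, so their calls add no support beyond the values themselves. CYCD4;1 had a log2 change of -1.07 that missed the threshold as deposited (limma adjusted p = 0.0722) and passed with the block (limma adjusted p = 0.0314) and, at -0.75, without both replicate 1 libraries (limma adjusted p = 0.0102).

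Of 9 tested A-type cyclins, which act in replication and mitosis, 0 passed with limma as deposited (4 were lower at an unadjusted p under 0.05), and 4 passed as lower with the block and 6 after median-ratio scaling, with a median log2 change of -0.81. Of all features 4.47% were lower as deposited, 14.3% with the block and 18.7% after that scaling. The share at the unadjusted threshold was not counted. CYCA1;1, CYCA2;4, CYCA3;1 and CYCA3;2 had log2 changes of -1.26, -0.96, -1.05 and -0.99 (limma adjusted p between 0.0702 and 0.1 as deposited), and all 4 passed without both replicate 1 libraries, at log2 changes between -0.92 and -0.74 (limma adjusted p between 0.00548 and 0.0123). Of RBR1 and 8 E2F-type factors, 1 passed as lower and none as higher, with a median log2 change of -0.37. Of all features 4.47% were lower and 13.3% higher. With the block 3 were lower, beside 14.3% of all features, and after median-ratio scaling 6 were lower, beside 18.7%. RBR1 itself had 30.4, 38.7 and 35.2 FPKM in sgd, against 36.5, 43.7 and 42.7 FPKM in WT (log2 change -0.24, limma adjusted p = 0.607). DEL1, an atypical E2F that delays endoreplication, had 1.83, 6.02 and 4.77 FPKM in sgd, against 8.45, 10.14 and 12.8 FPKM in WT (log2 change -1.22, limma adjusted p = 0.0374). The DEL1 call was lost without any 1 WT library or sgd library 3 (limma adjusted p between 0.0564 and 0.128), and without both replicate 1 libraries it passed (log2 change -0.96, limma adjusted p = 0.00664).

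Of 10 genes of the switch to endoreplication, DEL1 among them, 1 passed as lower and none as higher, with a median log2 change of -0.37. Of all features 4.47% were lower and 13.3% higher. With the block 3 were lower, beside 14.3% of all features, and after median-ratio scaling 4, beside 18.7%. CCS52B, an activator of the anaphase-promoting complex, and UVI4, an inhibitor of it, had log2 changes of -1.20 and -0.94 and passed with the block (limma adjusted p = 0.00885 and 0.0105) but not as deposited (limma adjusted p = 0.0674 and 0.0727). They were at -0.99 and -0.89 without both replicate 1 libraries (limma adjusted p = 0.000533 and 0.00394). The list of KRP turnover ubiquitin ligases and their shared subunits holds 8 genes, and a place in it does not mean that each degrades KRP proteins. Their median log2 change was 0.39, and 1 passed as higher and none as lower, beside 13.3% of all features higher. With the block 3 were higher, beside 26.5% of all features, and after median-ratio scaling 1, beside 19.2%. With both together 1 was higher and 1 lower, beside 3542 higher and 3661 lower of 18100 features. SKP2A, an F-box protein of the cell cycle, had 50.7, 25.6 and 31.5 FPKM in sgd, against 8.83, 17.6 and 16.9 FPKM in WT (log2 change 1.26, SE 0.34, limma adjusted p = 0.0305). That call was lost with the block (limma adjusted p = 0.0597), after median-ratio scaling (limma adjusted p = 0.0623), without WT library 1 (limma adjusted p = 0.0918) and without sgd library 3 (limma adjusted p = 0.0654). Without both replicate 1 libraries it was kept, at a log2 change of 0.69 (limma adjusted p = 0.00707). RKP, a RING ligase for KRP1, had a log2 change of 0.58 that missed the threshold as deposited (limma adjusted p = 0.151) and passed with the block (limma adjusted p = 0.0134) and, at 0.56, without both replicate 1 libraries (limma adjusted p = 0.00768). FBL17 had 12.8, 32.1 and 28.8 FPKM in sgd, against 20.9, 28.8 and 31.9 FPKM in WT (log2 change -0.22, limma adjusted p = 0.753).

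Of 7 tested known regulators of inhibitor genes 1 passed as higher and none as lower, with a median log2 change of -0.01. Of all features 13.3% were higher and 4.47% lower. With the block 1 was higher and 1 lower, beside 26.5% of all features higher and 14.3% lower. TCP14, a TCP-family factor, had 21.3, 28.3 and 27.5 FPKM in sgd, against 6.56, 7.13 and 5.44 FPKM in WT (log2 change 1.85, SE 0.25, limma adjusted p = 0.00076). ATML1, an epidermal factor that acts upstream of SMR1 in sepals, had 96.7, 192 and 187 FPKM in sgd, against 178, 285 and 278 FPKM in WT. Its log2 change of -0.67 did not pass as deposited (limma adjusted p = 0.288) and passed with the block (limma adjusted p = 0.0129) and, at -0.57, without both replicate 1 libraries (limma adjusted p = 0.00308). WUS stood at no more than 0.03 FPKM and the leaf-hair factor GL3 at no more than 0.14 FPKM in any library, and neither was tested.

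Without both replicate 1 libraries 32.2% of all features were higher and 17.5% lower, and the counts in these lists were as follows. Of 10 other SMR-type loci 3 were higher and 1 lower, and of 13 CDK kinases and activators 1 was higher and 8 were lower. Of 10 D-type cyclins 2 were higher and 5 lower, and of 9 A-type cyclins 0 were higher and 7 lower. Of RBR1 and the E2F factors 0 of 9 were higher and 4 lower, and of 10 endoreplication genes 0 were higher and 3 lower. Of 8 ubiquitin ligase genes 6 were higher and 1 lower, and of 7 regulators 2 were higher and 3 lower.

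**Figure D4:**
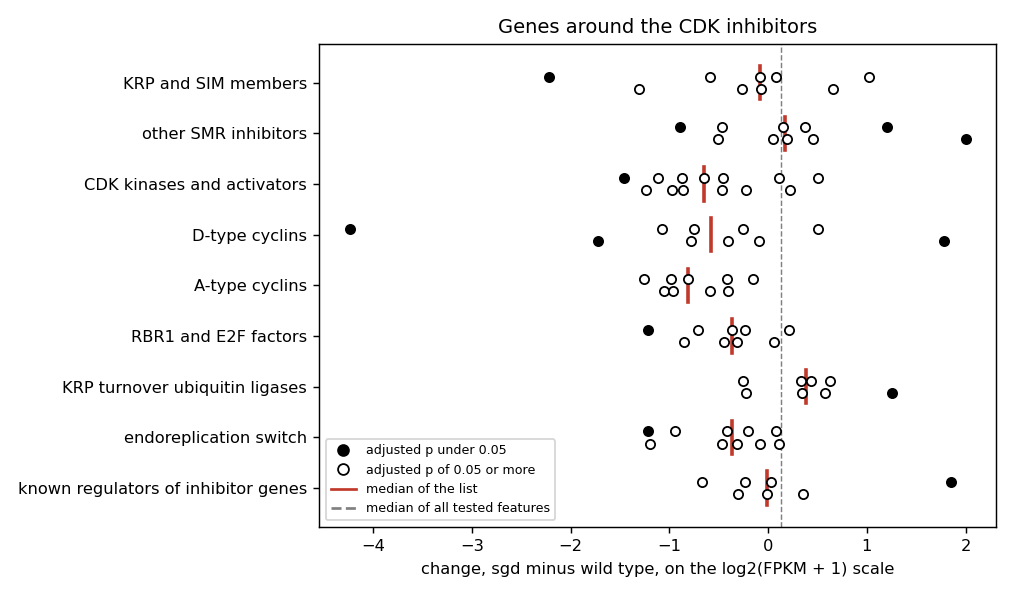
Change of every tested gene of the pathway lists, sgd minus WT, on the log2(FPKM + 1) scale, 1 point a gene and 1 row a list, with filled points for a limma adjusted p under 0.05 as deposited, red lines at list medians and a dashed line at the median of all features. List medians run from -0.81 for A-type cyclins to 0.39 for the list of KRP turnover ubiquitin ligases, and that of the 9 inhibitors is -0.09.

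Markers of several cell types differed between genotypes beside these results, not all in 1 direction within a list. The 8 ovule markers were present in every library, with a summed level of 582 to 1005 FPKM in sgd and 815 to 1524 FPKM in WT. ANT and BEL1 passed as lower, 2 of 8, beside 4.47% of all features. With the block 4 of 8 were lower, beside 14.3% of all features, and 1 was higher, beside 26.5%. That gene was SHP1, at 176 to 263 FPKM in sgd and 112 to 170 FPKM in WT (log2 change 0.66, limma adjusted p = 0.234 as deposited and 0.00874 with the block).

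Of 8 pollen and sperm markers 5 were tested and 4 passed as higher (VGD1, AGP6, AGP11 and PRK2), beside 13.3% of all features. The list summed to 61.2 to 138 FPKM in sgd and 9.44 to 19.7 FPKM in WT, a sum made up mostly of VGD1, AGP6 and AGP11. Other members stood the other way, with GEX2 at 0.40 to 1.11 FPKM in sgd and 1.77 to 2.41 FPKM in WT (limma adjusted p = 0.114 as deposited and 0.0472 with the block) and HAP2, not tested, at 0.16 to 0.48 FPKM in sgd and 0.83 to 1.36 FPKM in WT. GEX2 passed the filter on low values through its WT libraries, so its call with the block adds no support beyond the values themselves. The sperm factor gene DUO1 was at 0.21 FPKM or less in every library. Green tissue markers summed to 2436 to 3900 FPKM in sgd and 672 to 1893 FPKM in WT. Of these, 2 of 5 passed as higher (RBCS1A and LHCA4), beside 13.3% of all features. Each call was lost without WT library 3 (limma adjusted p = 0.103 and 0.0665) or sgd library 3 (limma adjusted p = 0.0866 and 0.107). RBCS1A was also lost without sgd library 2 and LHCA4 without WT library 1. Both were kept without both replicate 1 libraries (limma adjusted p = 0.00411 and 0.00294). LHCB1.3, PSBO1 and RCA did not pass as deposited.

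Trichome markers summed to 10.0 to 17.2 FPKM in sgd and 5.63 to 6.93 FPKM in WT, and of the 3 GL2 alone was higher, at 8.58 to 14.2 FPKM in sgd and 1.03 to 1.5 FPKM in WT. TRY stood at 1.33 to 2.96 FPKM in sgd and 3.62 to 5.32 FPKM in WT (log2 change -0.95, limma adjusted p = 0.0521 as deposited and 0.0194 with the block), and GL1 at 0.12 FPKM or less in sgd and 0.40 to 0.58 FPKM in WT. The part of these markers' tissues in the levels of KRP3, KRP6, SMR1 and the other members was not tested.

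The features most like KRP3 across the 6 libraries, by Pearson correlation of log2(FPKM + 1), were AT1G05710, AT5G61090 and ACI1 (AT5G01370), with r = 0.999 each, and AT1G21050 and AT4G21970, with r = 0.998 each. ACI1 had 5.90, 10.9 and 9.35 FPKM in sgd, against 17.0, 22.2 and 23.2 FPKM in WT. For KRP4, which did not part the genotypes, the most alike were AT2G35390, AT4G10300, AT1G33230 and TOPP5 (AT3G46820), with r = 0.996 each, and GSH1 (AT4G23100), with r = 0.993. These were picked as the highest of 18100 features over libraries that share their 2 genotypes and their numbering, so they describe a pattern only.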

How the data were processed

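FPKM values were deposited by the authors, 1 table a library, per the file headers, and what they are relative to beyond that name is not stated there. The submitters' processing notes name RSEM, TopHat2 2.1.1, cutadapt 1.15, CASAVA and DESeq2 as tools and TAIR10 as the build, and assign them no step. Whether counting used strand is not stated in the labels or files. From these values, limma 3.58.1 in R 4.3.3 (lmFit, eBayes with a trend) was run on log2(FPKM + 1) over 18100 features with a mean of at least 1 FPKM, all 6 libraries, two-sided, with Benjamini-Hochberg adjustment over all features tested and a threshold of 0.05. Changes are sgd minus WT, a scale that understates the change of low genes. The test was checked on simulated data, where it missed nearly all of the smaller changes that were set. A gene that did not pass is thus not shown to be unchanged. The 19 alternatives were other pseudocounts, filters, scalings, eBayes options, array quality weights, the replicate block, and libraries left out. Deviations from the genotype means correlated across genes at 0.524, 0.236 and 0.377 between libraries of the same number 1, 2 and 3. By the rule used, every such correlation over 0.1, the numbers from the labels were taken as a block in an alternative fit. Correlations of sgd library 2 with WT library 3 (0.431) and of sgd library 3 with WT library 2 (0.354) were also positive. The values set library 1 apart in both genotypes and do not settle how libraries 2 and 3 pair. Deviations within a genotype balance out, so positive values among libraries 2 and 3 follow in part from library 1. Depth is an estimate: at the fitted step, 95.8% to 96.8% of the low values came to a whole fragment number within 0.2.

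The members, gene lists, tests and alternatives were chosen with earlier results of these data known. Named genes are all 9 members, all tested loci of the other SMR-type list, up to 4 genes with the smallest p from each other list, and the 5 features most like the member with the smallest p and like the member with the highest level. CDKA;1, RBR1, FBL17, WUS, GL3, GEX2, HAP2, DUO1 and GL1 were named outside that rule. Promoters were read from the RefSeq TAIR10.1 genome and annotation, and protein sequences were not used here. RSEM can divide reads between near-identical copies.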

Additional observations from a re-analysis of the deposited data

How the results depend on the processing

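KRP3 kept its direction under all 19 alternatives and its call under 18, with log2 changes from -2.74 to -1.80. KRP6 passed under 10 of 19, KRP7 under 7 of 19 and SMR1 under 7 of 18, each with its direction kept. SMR1 was tested through its sgd libraries, so its calls here add no support beyond its values. As deposited 1 member was lower and 0 were higher, with 0 lower under no filter, 2 with a mean of at least 5 FPKM or robust eBayes, 3 with the replicate block, median-ratio scaling, both together, quantile normalization or equal totals, 4 without both replicate 1 libraries and 5 with array quality weights, whose fit stopped before converging. Higher members numbered 1 after rescaling to equal totals, median-ratio scaling, the replicate block, the block with median-ratio scaling, or without both replicate 1 libraries, and 2 with array quality weights. Leaving out each library in turn gave 0 to 1 higher, the 1 being SMR1 without sgd library 1 (limma adjusted p = 0.00744), and 1 to 2 lower, the second being KRP6 without sgd library 2 (limma adjusted p = 0.0218). The log2 change of KRP2 turned to -0.19 with quantile normalization and to -0.058 with median-ratio scaling, with and without the replicate block, and ranged from -0.14 to 0.44 with 1 library left out, negative without sgd library 2 (-0.14), sgd library 3 (-0.064) or WT library 1 (-0.12). That of KRP4 ranged from -0.28 to 0.034 with 1 library left out, positive without sgd library 1, WT library 2 or WT library 3, and that of KRP5 from -0.21 to 0.050, positive without sgd library 1, and was 0.035 with array quality weights. Over all features, 2407 were higher as deposited, against 4135 after rescaling to equal totals, 4793 with the replicate block, 8190 with array quality weights, 5797 without both replicate 1 libraries and 1514 to 3505 with 1 library left out. Lower features numbered 809 as deposited, against 412 with no filter, 2628 after rescaling, 3726 with quantile normalization, 3393 with median-ratio scaling, 2583 with the block, 3661 with the block and median-ratio scaling, 4421 with array quality weights, 3156 without both replicate 1 libraries and 382 to 1022 with 1 library left out. With array quality weights 2 of 9 members were higher, beside 8190 of 18100 features. In that fit 5 of 9 were lower, beside 4421 of 18100. Of 7 members tested under the filter at 5 FPKM, 2 were lower, beside 555 of 14557 features, and 0 higher, beside 1687. Robust eBayes gave 2 of 9 members lower, beside 939 of 18100 features, and 0 higher, beside 2479. The cause of the shifts between settings was not tested. Depth limits SMR1, KRP3 in sgd and the other genes near 1 FPKM most.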
